A study of Mus musculus with 9 samples.

Results

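Adhesion G protein-coupled receptors were followed in a mouse podocyte line given high glucose or advanced glycation end products (AGEs). The genes described are the 10 rows of the deposited expression table named Adgra1, Adgra2, Adgra3, Adgrb2, Adgre5, Adgrg1, Adgrg2, Adgrg6, Adgrl1 and Adgrl2, out of 55385 genes in the table. All 10 are annotated there as adhesion G protein-coupled receptors. The table also holds 20 other genes of the family, so that 30 are present in all. The names were chosen by measured values of these same libraries, and neither the value used nor a threshold is stated. The members' own values are therefore given as a description with no p-value, and counts of members past a threshold stand only beside the share of all genes past it and support nothing. No single level separates them from the rest of the family: Adgrg2 had 8 counts in 1 library and is among them, while Adgrf5, with 80 to 297 counts in every library, and Celsr1 and Celsr2 are not.

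Podocytes are the epithelial cells that wrap the glomerular capillaries of the kidney, and AGEs are proteins that have been modified by sugars. The 9 RNA sequencing libraries came from the line labelled MCP5, with a wild-type genotype in all of them. They formed 3 groups of 3: cells given 50 mmol/L glucose (high glucose), cells given 400 µg/mL AGEs, and cells labelled blank (control). The sources used here do not give the duration of exposure, the glucose of the control medium or an osmotic control. Libraries are numbered 1 to 3 within a group and nothing states that they came from separate cultures, so any p-value reflects only how far these libraries differ among themselves, and that may be technical.

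Adhesion receptors are surface proteins with a large extracellular part joined to a membrane-spanning part of the G protein-coupled receptor type. In most of them a GAIN domain next to the membrane cuts the chain during maturation, and the released stub can act as a tethered agonist once the outer fragment is pulled away by a ligand in the matrix or on a neighbouring cell. Signalling then runs through G protein alpha subunits, for many members through the Gα12/13 class to RhoA and for others through Gs to cyclic AMP.

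Total counts per library were 77242281, 46284878 and 71972434 in high glucose, 68072395, 72299415 and 73427057 in AGEs, and 66364072, 70705840 and 62193640 in control. On the first principal component, with 60.8% of the variance, the high glucose libraries lay at 53.5 to 54.3 and the other 6 libraries between −31.5 and −21.3. On the second, with 9.28%, AGEs library 3 lay at 22.9 and control library 3 at −27.8. In high glucose against control, 39.3% of all genes tested were called (edgeR's quasi-likelihood test, adjusted p under 0.05). Of 10 podocyte markers, 8 were at 1 CPM (counts scaled to library size) or more in each group. In that comparison 8 were tested, 2 were called higher, 1 lower and 5 were not called. The 10 podocyte markers summed to 1113 to 1120 CPM in high glucose, 1402 to 1480 CPM in AGEs and 1021 to 1290 CPM in control. Among the 10, the transcription factor gene Wt1 had 0 counts in AGEs and control libraries. Of 5 parietal markers, 3 were called higher in high glucose against control (Pax2, Krt8 and Cd24a) and 2 were not called (Cldn1 and Pax8), and of 6 tubular markers, 3 were tested and called higher (Lrp2, Cubn and Cdh16). The 5 parietal markers summed to 1299 to 1479 CPM in high glucose, 389 to 520 CPM in AGEs and 415 to 433 CPM in control, and the 6 tubular markers, of which Slc34a1, Umod and Aqp2 were at 0 throughout, summed to 355 to 396 CPM in high glucose, 121 to 158 CPM in AGEs and 123 to 125 CPM in control. The 6 leukocyte markers summed to 135 to 150 CPM in high glucose, 78.2 to 94.0 CPM in AGEs and 79.9 to 87.5 CPM in control; 2 of them were called higher in high glucose (Cd14 and Csf1r), 1 lower (Cd68) and 3 were not called. The part of these differences in the values below was not tested. In bulk libraries, more cells of a type and more RNA per cell cannot be told apart.

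Of the 10 receptor genes 9 passed the filter on low counts, and Adgrg1 gave the largest share of the signal of the 10 in every group. Levels between genes are given in FPKM, which scales the fragments of a gene to its length and to library size. Adgrg1, whose product GPR56 binds collagen III and transglutaminase 2, averaged 73.8 ± 3.26 FPKM in high glucose, 21.5 ± 9.38 FPKM in AGEs and 28.6 ± 0.608 FPKM in control (SD, n = 3). Adgre5, which encodes CD97, a receptor for the complement regulator CD55, came next with 24.9 ± 1.17 FPKM in high glucose, 14.4 ± 2.92 FPKM in AGEs and 14.3 ± 0.473 FPKM in control. Adgra3 (GPR125, an orphan receptor) and Adgrg6 (GPR126, needed for myelination by Schwann cells) followed in all 3 groups.

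Below these 4 genes the order depended on the group. In high glucose it ran Adgra1, Adgrl1, Adgrl2, Adgra2 and Adgrb2, and neighbours from Adgrg6 down to Adgra2 overlapped in their ranges over 3 libraries. In AGEs and in control it ran Adgra2, Adgrl1, Adgrl2, Adgrb2, Adgra1 and Adgrg2. No neighbours in that order overlapped in control. In AGEs, Adgrg1 overlapped with Adgre5, Adgrl1 with Adgrl2, and Adgra1 with Adgrg2.

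The summed FPKM of the 10 genes was 128, 131 and 143 in the high glucose libraries, 48.9, 44.0 and 71.0 in the AGEs libraries, and 58.3, 59.9 and 60.3 in the control libraries. Every high glucose library was above the others, and the AGEs libraries lay on both sides of the control libraries. Adgrg1 made up 55.1 ± 2.79% of this sum in high glucose, 38.2 ± 6.27% in AGEs and 48.0 ± 0.522% in control. The share of Adgra1 was 4.63 ± 0.411% in high glucose, 0.0313 ± 0.0543% in AGEs and 0.0618 ± 0.0261% in control. Adgre5, Adgra3 and Adgrg6 took smaller shares in high glucose than in control, with means of 18.6% against 24.1%, 9.34% against 14.2% and 5.18% against 7.65%.

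**Figure D1:**
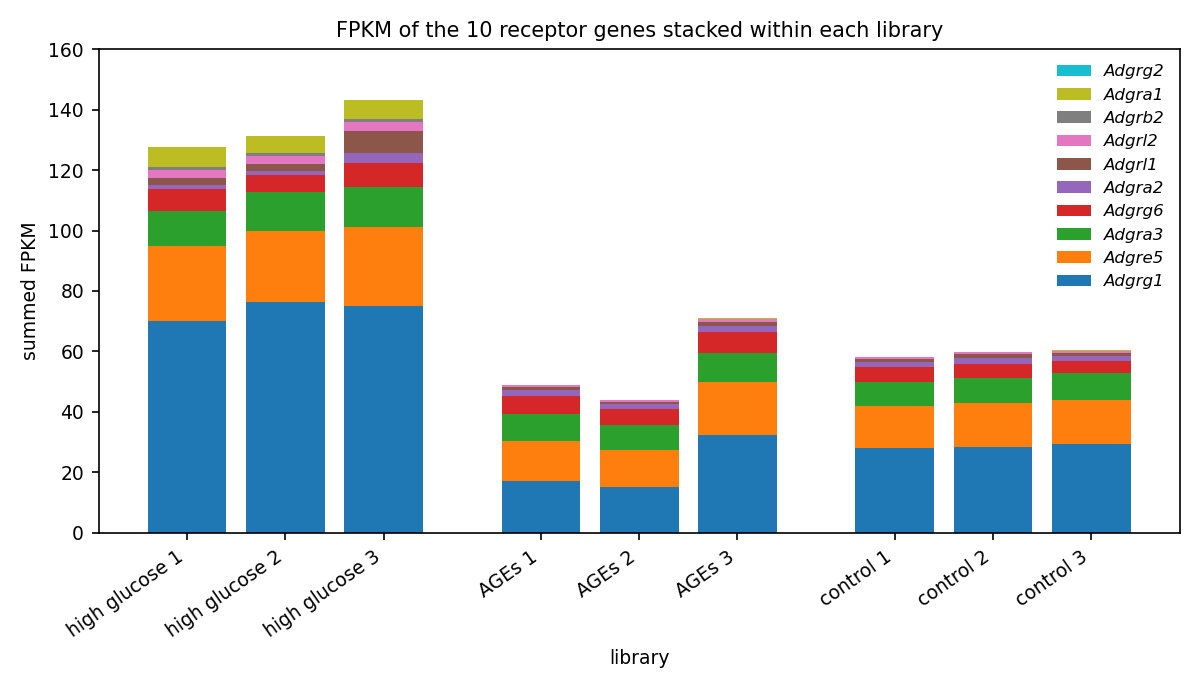
FPKM of the 10 receptor genes stacked within each of the 9 libraries, with 3 libraries each of high glucose, AGEs and control along the horizontal axis. The stacks reach 128 to 143 in high glucose, 44.0 to 71.0 in AGEs and 58.3 to 60.3 in control, and Adgrg1 is the lowest and tallest block in each.

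**Figure D2:**
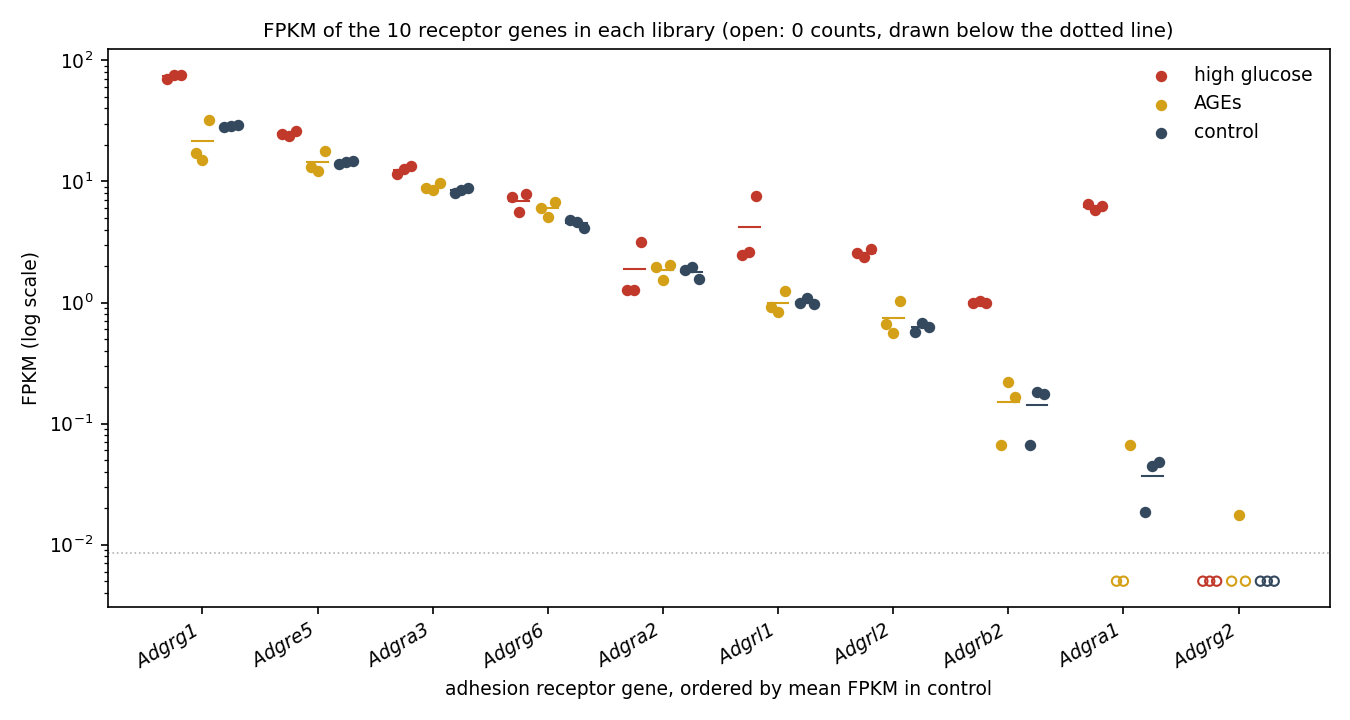
FPKM on a log axis for each receptor gene, with 1 point per library and a line at the group mean where every library had counts; open points below the dotted line are libraries with 0 counts. Adgra1 stands at 5.75 to 6.51 FPKM in high glucose and at or below 0.0667 FPKM in the other groups.

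High glucose against control asks which of the receptors differ in cells kept at 50 mmol/L glucose. Over all 17680 genes tested, 39.3% were called at an adjusted p under 0.05 by edgeR's quasi-likelihood test with Benjamini-Hochberg adjustment, 19.6% were called higher in high glucose, and the groups did not overlap for 54.1%. Of the 9 receptor genes tested, 8 were called, all of them higher in high glucose, and for the same number the 2 groups of libraries did not overlap. Because measured values chose the genes, nothing is read from this count. The median log2 fold change of the 9 was 1.19, beside 0.03 over all genes tested. On the FPKM scale the median of all genes was shifted: with limma on log2(FPKM + 0.1), whose pseudocount of 0.1 understates changes of low genes, it was 0.17 in high glucose against control, and 67.9% of the calls were higher, against 49.9% with counts. Fold changes below are therefore those fitted to counts.

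The A subfamily held both the largest and the smallest difference. Positions are those of the deposited table (GRCm38). Adgra1 (GPR123, an orphan receptor known mostly from brain, at chr7:139834174-139878088) had 6.51, 5.75 and 6.30 FPKM in high glucose, 0.0001, 0.0001 and 0.0667 FPKM in AGEs, and 0.0186, 0.0443 and 0.048 FPKM in control, where 0.0001 is what the deposited table holds for a count of 0. The counts behind these values were 3029, 1596 and 2733 in high glucose, 0, 0 and 30 in AGEs, and 8, 19 and 18 in control. High glucose stood far above the rest, and the other 6 libraries were near the detection limit. The log2 fold change against control was 7.18 (SE 0.89), a fold of 145, and the plain ratio of counts per total count was 167 with a 95% interval from 124 to 229 that covers counting error only. That interval takes each count as a separate fragment, which small counts here need not be (see Adgrg2 below), so it may be too narrow. The control level rests on 45 counts over 3 libraries. With the pseudocount of 1 on FPKM the log2 fold change was 2.79. Neural and glial markers, summed over 6 genes, stayed between 1.12 and 1.97 CPM in all libraries, with Rbfox3 and Sox10 at 0.

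Adgra2 and Adgra3 differed less. Adgra2 encodes GPR124, the receptor that works with RECK as a coactivator of Wnt7 signals in brain endothelium. The gene lies at chr8:27085583-27123436 and had 1.28, 1.28 and 3.16 FPKM in high glucose, 1.98, 1.54 and 2.05 FPKM in AGEs, and 1.86, 1.97 and 1.56 FPKM in control. High glucose library 3 was the highest of all 9 and the other high glucose libraries were the lowest, so the group surrounded the control libraries. The log2 fold change was −0.09 (SE 0.32). Without high glucose library 3 it was −0.66, and the gene was then called lower. Adgra3 (chr5:49959956-50059006) had 11.5, 12.7 and 13.3 FPKM in high glucose, 8.90, 8.48 and 9.63 FPKM in AGEs, and 8.03, 8.52 and 8.78 FPKM in control. The high glucose libraries did not overlap with either other group, and the log2 fold change against control was 0.39 (SE 0.08), which is 1.31-fold.

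Adgrb2 encodes BAI2, a receptor of the B subfamily that is best known from brain, and lies at chr4:129984870-130022633. It had 1.0, 1.02 and 0.984 FPKM in high glucose, 0.0671, 0.219 and 0.166 FPKM in AGEs, and 0.0663, 0.184 and 0.174 FPKM in control. Levels in high glucose were close to one another and above all others, while the first library of each other group was below its 2 partners. The log2 fold change was 2.61 (SE 0.46), a fold of 6.08, with a range of 0.81 to 2.83 over the 17 alternatives, the lowest from the pseudocount of 1 on FPKM.

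The latrophilins Adgrl1 and Adgrl2 bind teneurins and FLRT proteins on neighbouring cells and, for Adgrl1, the spider toxin alpha-latrotoxin. Adgrl1 (chr8:83900105-83941954) had 2.45, 2.62 and 7.55 FPKM in high glucose, 0.914, 0.831 and 1.25 FPKM in AGEs, and 1.0, 1.08 and 0.963 FPKM in control. All high glucose libraries were above all others, and library 3 was the highest at 3.0 times the CPM of the lowest. Its log2 fold change was 1.87 (SE 0.40), and 1.15 without high glucose library 3. Adgrl2 (chr3:148815583-148990555) had 2.57, 2.39 and 2.75 FPKM in high glucose, 0.663, 0.555 and 1.03 FPKM in AGEs, and 0.572, 0.681 and 0.627 FPKM in control. Here the high glucose libraries lay close together and apart from the rest, with a log2 fold change of 1.86 (SE 0.21) against control, so that the folds of the 2 latrophilins were 3.65 and 3.62.

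The promoter windows of the 4 genes with the largest folds are shown because their transcripts were higher together in high glucose. RefSeq windows (GRCm38.p6, 250 bases before to 50 after an annotated start) were found for 8 of the 10 genes, 9 windows in all. Capitals mark matches, on either strand, to the GC box GGGCGG or the TATA box TATAAA. The E-box CACGTG, the CCAAT box and the cAMP response element TGACGTCA were searched in the same way, with no match in any of the 9 windows. No matches overlapped. The Adgra1 window is chr7:139833924-139834223 on the plus strand, the Adgrb2 window chr4:129984620-129984919 on the plus strand, the Adgrl1 window chr8:83899848-83900147 on the plus strand, and the Adgrl2 window chr3:148954586-148954885 on the minus strand, inside the gene as the deposited table bounds it.
Adgra1: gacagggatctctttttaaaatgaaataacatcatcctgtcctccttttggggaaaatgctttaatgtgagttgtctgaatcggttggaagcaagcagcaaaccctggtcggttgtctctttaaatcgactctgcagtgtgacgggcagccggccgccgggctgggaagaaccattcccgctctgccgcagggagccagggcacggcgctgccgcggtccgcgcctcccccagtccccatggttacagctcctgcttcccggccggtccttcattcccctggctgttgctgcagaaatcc
Adgrb2: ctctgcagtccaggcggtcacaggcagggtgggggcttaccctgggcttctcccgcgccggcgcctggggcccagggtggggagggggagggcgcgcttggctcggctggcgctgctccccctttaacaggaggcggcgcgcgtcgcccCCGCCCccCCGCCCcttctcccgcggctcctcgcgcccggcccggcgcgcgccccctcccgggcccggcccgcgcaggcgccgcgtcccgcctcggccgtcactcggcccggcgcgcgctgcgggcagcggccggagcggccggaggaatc
Adgrl1: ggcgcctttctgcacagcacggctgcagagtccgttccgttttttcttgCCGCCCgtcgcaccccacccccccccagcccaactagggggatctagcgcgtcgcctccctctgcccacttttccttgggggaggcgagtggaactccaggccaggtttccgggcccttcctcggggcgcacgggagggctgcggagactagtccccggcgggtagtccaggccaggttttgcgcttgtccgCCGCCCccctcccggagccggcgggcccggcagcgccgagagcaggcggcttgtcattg
Adgrl2: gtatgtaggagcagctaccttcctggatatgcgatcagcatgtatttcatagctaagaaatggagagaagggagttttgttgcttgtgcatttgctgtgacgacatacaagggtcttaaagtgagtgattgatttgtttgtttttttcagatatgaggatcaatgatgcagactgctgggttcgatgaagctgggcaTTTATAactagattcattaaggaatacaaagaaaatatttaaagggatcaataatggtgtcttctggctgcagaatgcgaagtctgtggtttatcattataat

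The 4 windows had little in common in composition. The Adgrb2 window was 81.7% G and C with 45 CpG dinucleotides and 2 GC boxes, and the Adgrl1 window was 70% G and C with 28 CpG and 2 GC boxes. Adgra1 had 57.3% G and C, 17 CpG and no match. Adgrl2 had 38% G and C, 4 CpG and 1 TATA match. Over all 32851 RefSeq windows, the medians were 52.7% G and C and 7 CpG, a GC box was present in 35.7%, a TATA box in 13.6%, a CCAAT box in 37.4%, an E-box in 7.15% and a cAMP response element in 1.79%. Among the 9 windows of the receptor genes, 5 held a GC box and 1 a TATA box.

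Among Adgrg1, Adgre5, Adgra3 and Adgrg6, the most abundant of the chosen genes, Adgrg1 showed the largest difference between high glucose and control. It had 70.1, 76.2 and 75.1 FPKM in high glucose, 17.1, 15.1 and 32.2 FPKM in AGEs, and 28.1, 28.4 and 29.2 FPKM in control. All 3 high glucose values were above the rest, and AGEs library 3 was the only AGEs library above the control libraries. The log2 fold change of high glucose against control was 1.19 (SE 0.25), which is 2.29-fold. Adgrg1 lies on chromosome 8 between Adgrg5, 31.5 kb away, and Adgrg3, 3.5 kb away, on the same strand (Adgrg1 at chr8:94974751-95014196). Its neighbours had 12 and 24 counts in all 9 libraries together, against 149193 for Adgrg1.

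Adgre5 (chr8:83723251-83741326) had 24.7, 23.8 and 26.1 FPKM in high glucose, 13.2, 12.2 and 17.7 FPKM in AGEs, and 13.8, 14.4 and 14.8 FPKM in control. No high glucose value overlapped with either other group, with a log2 fold change of 0.62 (SE 0.13) against control, or 1.54-fold. Adgre5 overlaps Ddx39, an RNA helicase gene on the opposite strand with 149616 counts against 45431, and whether counting used the strand is not given in the sources used here. Ddx39 itself was not called, with a log2 fold change of 0.04 (edgeR adjusted p = 0.739).

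Adgrg6 (chr10:14402583-14545179) had 7.44, 5.56 and 7.86 FPKM in high glucose, 6.05, 5.10 and 6.82 FPKM in AGEs, and 4.84, 4.63 and 4.16 FPKM in control. Both treated groups lay above the control libraries and overlapped with each other. In CPM, on which overlap was counted, high glucose barely cleared control: high glucose library 2 was at 69.1 and control library 1 at 68.8. The log2 fold change of high glucose against control was 0.44 (SE 0.15), or 1.36-fold, with a range of 0.35 to 0.59 over the 17 alternatives. The call of Adgrg6 was lost in 7 of the 17. The gene overlaps the pseudogene Gm10335 on the opposite strand, with 63410 counts where Adgrg6 had 48945. Gm10335 was lower in high glucose by a log2 fold change of −1.23 (edgeR adjusted p = 0.00293), the opposite direction to Adgrg6. Adgrg6 also overlaps Gm46212 on the opposite strand, with 600 counts. Its log2 fold change was 1.21 (edgeR adjusted p = 0.0584), the same direction as Adgrg6, and it was not called. Whether reads were shared was not tested. Adgra2 overlaps Brf2, a transcription factor subunit gene with 12716 counts and a log2 fold change of −0.18 (edgeR adjusted p = 0.383), and Adgrl1 overlaps Gm10644, with 1623 counts and a log2 fold change of −0.76 (edgeR adjusted p = 0.214). Adgra1, Adgra3, Adgrb2 and Adgrg1 overlap no other gene of the table.

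Adgrg2 (chrX:160390690-160498070), a receptor known from the efferent ducts and epididymis, had 8 counts in AGEs library 2 (0.0177 FPKM) and 0 in the other 8 libraries. It did not pass the filter, and no fold is given. Among small values of the table, counts of 8 had 4896 entries, against 1632 for 7 and 1111 for 9, so that 8 counts need not be 8 fragments.

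AGEs against control asks the same of cells given 400 µg/mL AGEs. Over all genes tested 0.0848% were called, which is 15 of 17680, and the groups did not overlap for 19.2%. An unadjusted edgeR p under 0.05 was found for 2190 of these genes. None of the 9 receptor genes was called by edgeR's quasi-likelihood test, DESeq2 or limma, and 1 had an unadjusted p under 0.05. The groups did not overlap for 1 of them, Adgrg6, whose log2 fold change was 0.42 (SE 0.15). Their median log2 fold change was 0.07, beside −0.00 over all genes, with 6 above 0 and 3 below.

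Adgrg1 had a log2 fold change of −0.38 (SE 0.24) in AGEs against control. AGEs library 3, at 32.2 FPKM, was above the control range of 28.1 to 29.2 FPKM, and libraries 1 and 2, at 17.1 and 15.1 FPKM, were below it. Without AGEs library 3 the log2 fold change was −0.82. For Adgra1 the value was −0.67 (SE 1.0) and rests on 30 counts in AGEs, all in library 3, against 45 in control. The count ratio of 0.621 had a 95% interval from 0.378 to 1.01, which takes each count as a separate fragment and may be too narrow. For the other 6 genes the log2 fold changes lay between −0.00 (SE 0.39, Adgrl1) and 0.28 (SE 0.21, Adgrl2). The AGEs value of Adgrl2 was −0.04 and that of Adgre5 −0.16, against 0.03 with all libraries, when AGEs library 3 was left out.

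AGEs library 3 was the highest of its group in CPM for 8 of the 9 receptor genes, all except Adgrb2. Over all genes tested it was the highest for 36.2%. High glucose library 3 was the highest of its group for 6 of the 9, against 32.8% of all genes. The coefficient of variation of Adgrg1 was 2.95% in high glucose, 45.3% in AGEs and 2.40% in control, and that of Adgrl1 was 68.0% in high glucose, 23.7% in AGEs and 5.04% in control.

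**Figure D3:**
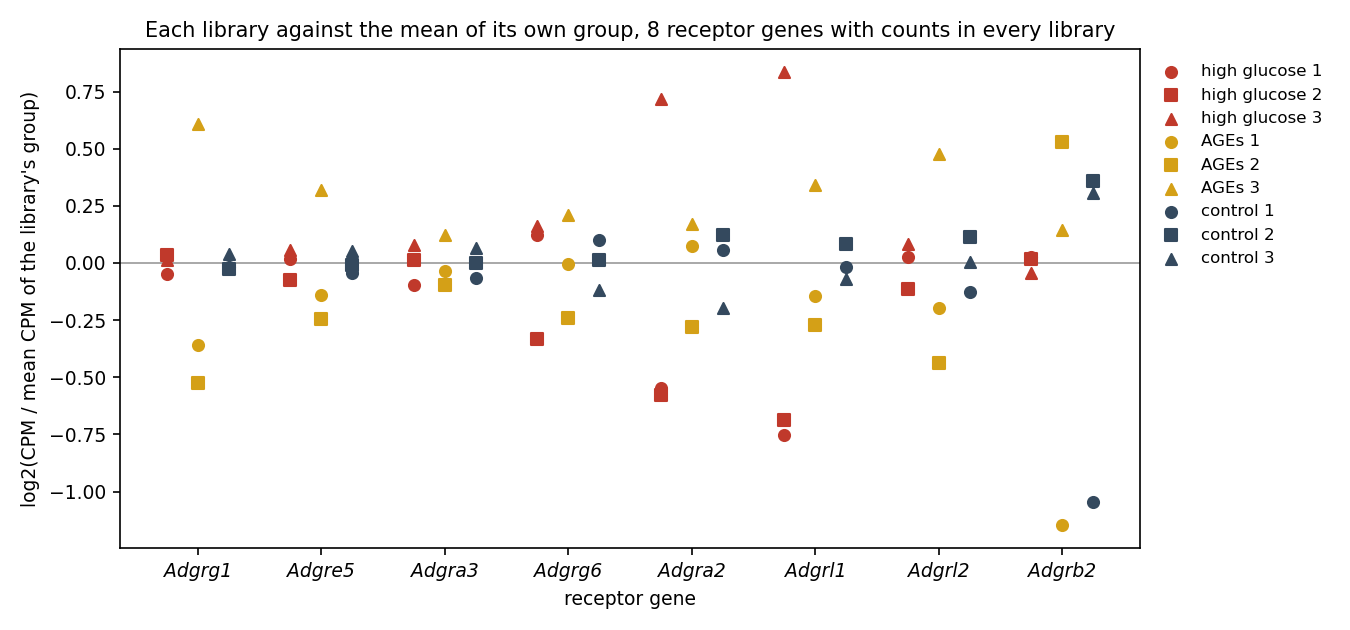
Log2 of CPM over the mean CPM of the library's own group, for the 8 receptor genes with counts in every library; colours mark the groups and symbols the library number. AGEs library 3 lies above 0 for all 8, and high glucose library 3 stands well above the other high glucose libraries for Adgra2 and Adgrl1.

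AGEs against high glucose shares the high glucose libraries with the first comparison and the AGEs libraries with the second, so the 3 sets of values are not independent. Here 39.9% of all genes were called. Of the 9 receptor genes 7 were called, all lower in AGEs, and again nothing is read from the count. The median was −1.58, beside −0.02 over all genes. Adgra1 had a log2 fold change of −7.84 (SE 0.93), Adgrb2 −2.50 (SE 0.45) and Adgrl1 −1.87 (SE 0.40). Without high glucose library 3 the value of Adgrl1 was −1.15. Without AGEs library 3 no count of Adgra1 was left in AGEs, and the fitted −14.17 then depends on the prior count and measures no size. Adgrl2 and Adgrg1 stood at −1.58 (SE 0.21 and 0.25), Adgre5 at −0.59 (SE 0.13) and Adgra3 at −0.28 (SE 0.08). The call of Adgra3 was lost in 4 of the 17 alternatives, each with 1 library left out. Adgra2 stood at 0.16 (SE 0.32), or 0.73 without high glucose library 3, and Adgrg6 at −0.02 (SE 0.15).

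**Figure D4:**
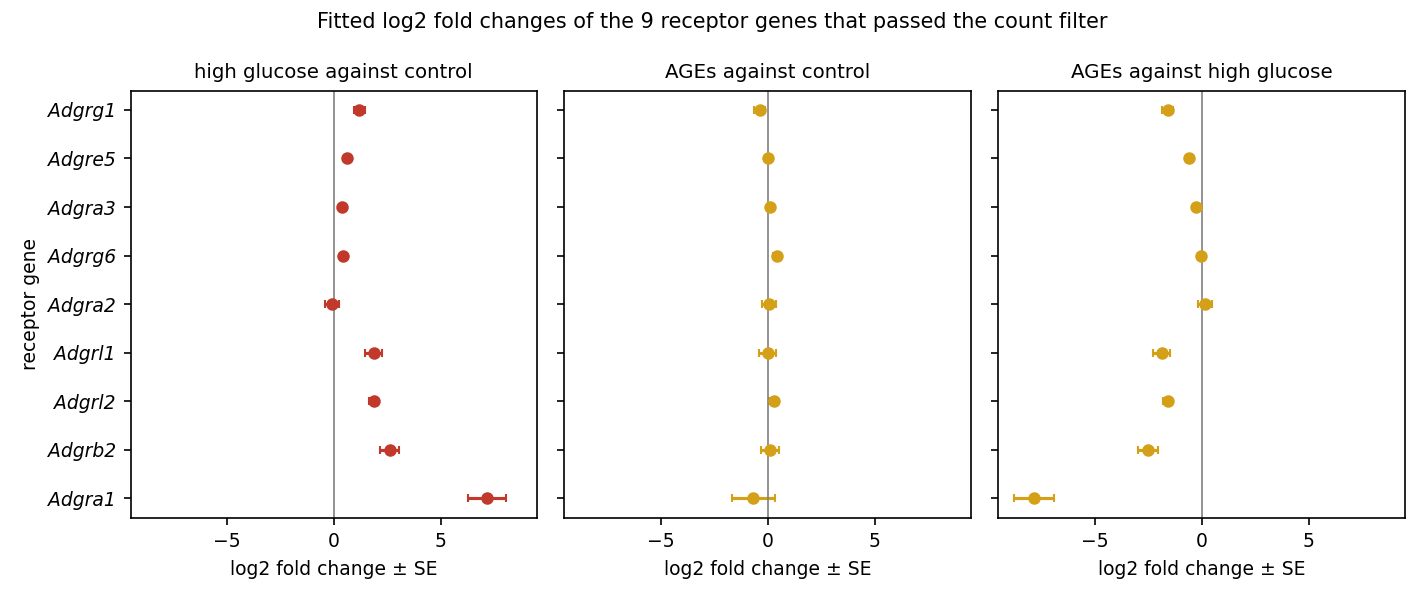
Log2 fold changes with standard errors from the count fit for the 9 receptor genes tested, in 3 panels: high glucose against control, AGEs against control, and AGEs against high glucose. In the first panel 8 points lie above 0 with Adgra1 at 7.18, in the second all lie between −0.67 and 0.42, and in the third 8 lie below 0 with Adgra1 at −7.84.

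In the rest of the family, Celsr2, Celsr1 and Adgrf5 had 24628, 7369 and 1562 counts over the 9 libraries, and no other gene had more than 69. Of the 20 other adhesion receptor genes 7 passed the filter, and 3 rose in high glucose against control: Celsr1, Celsr2 and Adgrf5. The share called was 42.9% of the 7, beside 39.3% of all genes tested. Celsr1 and Celsr2 encode cadherin-type receptors of planar cell polarity. Celsr1 had 1.95, 2.14 and 2.41 FPKM in high glucose, 0.374, 0.411 and 0.540 FPKM in AGEs, and 0.389, 0.452 and 0.369 FPKM in control, a log2 fold change of 2.24 (SE 0.17, edgeR adjusted p = 1.49e-05) in high glucose. Celsr2 had 5.44, 7.29 and 9.16 FPKM in high glucose, 1.07, 0.735 and 1.81 FPKM in AGEs, and 1.39, 1.33 and 0.843 FPKM in control, a log2 fold change of 2.44 (SE 0.34, edgeR adjusted p = 0.000458). In both genes every high glucose library was above every other library, and the AGEs libraries overlapped with the control libraries.

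Adgrf5, a receptor of lung and kidney epithelium named after its values were seen, had a log2 fold change of 1.10 (SE 0.38, edgeR adjusted p = 0.0466), with overlapping groups, and its call was lost in 13 of 17 alternatives. The other 4 that passed, Adgre1, Adgrf2, Adgrf4 and Adgrv1, had at most 62 counts over all libraries and were not called. The remaining 13 did not pass and had 0 to 69 counts in total, with Celsr3 the highest. The median log2 fold change of the 7 was 2.52 and includes these low counts. None of the 7 was called in AGEs against control by edgeR, DESeq2 or limma, and 0 had an unadjusted edgeR p under 0.05. Over all 17680 genes tested, edgeR called 0.0848% there, and 2190 had an unadjusted p under 0.05. With so few genes nothing is read from these counts.

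Ligands of these receptors moved in both directions. Of 28 listed ligand genes 16 were tested, 5 rose and 3 fell in high glucose, 8 were not called, and their median log2 fold change was 0.46. The share called was 50.0%, beside 39.3% of all genes tested. Tgm2, the transglutaminase that binds Adgrg1's product, had 45.7, 51.9 and 49.4 FPKM in high glucose, 14.2, 15.5 and 21.1 FPKM in AGEs, and 14.5, 13.7 and 14.2 FPKM in control. The high glucose libraries were far above the others, with a log2 fold change of 1.61 (SE 0.14, edgeR adjusted p = 3.31e-05). The other ligand of that receptor, Col3a1, was at or below 0.0559 FPKM in every library and was not called (log2 fold change 0.42, edgeR adjusted p = 0.806).

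Among partners of Adgrg6, the collagen IV gene Col4a1 had 1.66, 1.64 and 1.71 FPKM in high glucose, 0.675, 0.912 and 1.11 FPKM in AGEs, and 0.453, 0.721 and 0.699 FPKM in control, a log2 fold change of 1.24 (SE 0.22, edgeR adjusted p = 0.00192). Col4a2 and Prnp, the prion protein gene, also passed the test, in opposite directions, at 1.33 and −0.42. Cd55, whose product binds that of Adgre5, had 4 counts in all and was not tested, and Itga5, a gene for a subunit of the integrin that binds the same receptor, rose by 0.69 on the log2 scale.

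Of the latrophilin ligands, Tenm4, a teneurin gene, fell in high glucose: it had 0.0166, 0.0239 and 0.0303 FPKM there, 0.252, 0.219 and 0.110 FPKM in AGEs, and 0.224, 0.211 and 0.213 FPKM in control, a log2 fold change of −3.34 (SE 0.34, edgeR adjusted p = 6.6e-05). Flrt2 was scattered and was not called (−0.07, edgeR adjusted p = 0.948). Of the Wnt7 genes, whose signal Adgra2's product enhances, Wnt7a had 2.62, 4.05 and 3.64 FPKM in high glucose, 9.58, 8.34 and 8.83 FPKM in AGEs, and 8.17, 6.17 and 10.1 FPKM in control. Every high glucose library was below every other, with a log2 fold change of −1.43 (SE 0.20, edgeR adjusted p = 0.00047). The more abundant Wnt7b was not called: it had 16.3, 17.6 and 9.78 FPKM in high glucose, 14.7, 13.4 and 23.5 FPKM in AGEs, and 10.5, 19.7 and 21.0 FPKM in control, with a log2 fold change of −0.40 (SE 0.32, edgeR adjusted p = 0.367). Reck, which encodes the partner of Adgra2's product in that complex, was not called (0.37, edgeR adjusted p = 0.112). C1ql1, a listed ligand gene of the C1q-like family, rose by 1.41 on the log2 scale. Whether its product binds that of Adgrb2 was not tested.

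Downstream of the receptors, 11 of 13 G protein alpha subunit genes were tested in high glucose against control, of which 4 rose, 1 fell and 6 were not called. The share called was 45.5%, beside 39.3% of all genes tested. Gnai2, an inhibitory subunit, had 111, 114 and 106 FPKM in high glucose, 49.6, 52.3 and 63.4 FPKM in AGEs, and 57.0, 55.8 and 62.0 FPKM in control, a log2 fold change of 0.75 (SE 0.10, edgeR adjusted p = 0.000407). Gnaq, of the phospholipase C class, followed at 0.59 (SE 0.09, adjusted p = 0.000685), and Gnai3 at 0.52 (SE 0.10, adjusted p = 0.00288). Of the Gα12/13 class, Gna12 fell by 0.39 on the log2 scale (adjusted p = 0.00494), a call lost on the FPKM scale with limma, and Gna13 was not called (0.20, adjusted p = 0.0956). The stimulatory subunit gene Gnas was not called (0.06, adjusted p = 0.68). The median of the 11 was 0.20.

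Of 26 effector genes 20 were tested, 4 rose, 1 fell and 15 were not called, with a median of 0.24. The share called was 25.0%, beside 39.3% of all genes tested. Adcy6, an adenylyl cyclase gene, had 16.8, 16.4 and 18.0 FPKM in high glucose, 7.94, 7.13 and 7.83 FPKM in AGEs, and 7.96, 9.08 and 8.88 FPKM in control (log2 fold change 0.81, SE 0.08, edgeR adjusted p = 6.02e-05). Arhgef12, a guanine nucleotide exchange factor gene for RhoA, rose by 0.68 (SE 0.13, adjusted p = 0.0027) and Plcb3, a phospholipase C gene, by 0.40 (SE 0.08, adjusted p = 0.00283). RhoA's gene was not called, at −0.09 (adjusted p = 0.322).

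Of 18 scaffold and membrane partner genes 17 were tested, 8 rose, 1 fell and 8 were not called, with a median of 0.60. The share called was 52.9%, beside 39.3% of all genes tested. The tetraspanin gene Cd9 had 114, 108 and 104 FPKM in high glucose, 49.5, 50.3 and 57.6 FPKM in AGEs, and 44.4, 41.2 and 47.0 FPKM in control, a log2 fold change of 1.12 (SE 0.09, edgeR adjusted p = 2.29e-05). Cd81, a tetraspanin gene whose product binds that of Adgrg1, rose by 0.65 (SE 0.07, adjusted p = 0.000145), and Dock1, an exchange factor gene for Rac that acts with Elmo proteins, by 1.16 (SE 0.13, adjusted p = 0.00015). In AGEs against control none of the ligand, G protein, effector or scaffold genes was called by edgeR. With edgeR 8 of them had an unadjusted p under 0.05, and 1 effector gene was called by DESeq2. Of all 17680 genes tested in that comparison, edgeR called 15 (0.0848%), 2190 had an unadjusted edgeR p under 0.05, and DESeq2 called 325. Nothing is read from these list counts. For high glucose against control, the share of all genes called, 39.3%, is the background of each of these lists.

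Many genes shared the pattern of Adgra1 over the 9 libraries, high in 3 and low in 6. By Pearson correlation of log2(CPM + 1), a description over 9 libraries in 3 groups, the most similar genes were Capn5 (r = 0.9989), Lrp5 (0.9987) and Lgr6 (0.9985), and 103 genes were above 0.99. Capn5 averaged 78.5 CPM in high glucose, 20.9 CPM in AGEs and 21.2 CPM in control. The closest gene to Adgrl2 was Sorl1 (0.9977), to Adgrb2 Slc12a5 (0.9906), to Adgrg1 Lrrc14 (0.9905), to Adgra3 Agrn (0.9897) and to Adgre5 Cdh3 (0.9896). Adgrl1, Adgrg6 and Adgra2 had less similar nearest genes, Cd300lb (0.9791), Reep3 (0.9527) and Foxp1 (0.9348). Slc12a5 and Cd300lb were near the detection limit, so their correlations rest on few counts. Slc12a5 averaged 0.961 CPM in high glucose, 0.145 CPM in AGEs and 0.162 CPM in control. For Cd300lb the means were 0.319, 0.0 and 0.0 CPM.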

How the data were processed

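The authors deposited 1 table with read counts and FPKM per gene for each of 9 libraries. Counts were whole numbers, per the file headers and values. FPKM was computed by the authors, with 0.0001 for a count of 0. The submitters' processing notes name cutadapt 1.9, FastQC and the build GRCm38. The sources used here do not name the aligner, the counter or how strand was handled. Per the labels' protocols, RNA was extracted with TRIzol and copied with SuperScript II.

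Counts were fitted with edgeR 4.0.16 (glmQLFit, glmQLFTest; R 4.3.3) in 1 model of 3 group means, after filterByExpr (17680 genes) and TMM scaling (factors 0.935 to 1.10). The common biological coefficient of variation was 0.278. Tests were two-sided with Benjamini-Hochberg adjustment over all genes tested and a threshold of 0.05. The standard error is the absolute log2 fold change divided by the square root of F. Total counts of 46284878 to 77242281 set the precision. Intervals cover counting error only and take each count as a separate fragment. Replicates differed beyond sampling noise (chi-square per degree of freedom 44.07 to 100.8), so none was taken as a copy. The procedure was tested on simulated data.

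Alternatives were DESeq2 1.42.0, RLE factors, no filter, a mean CPM of 1, limma 3.58.1 on log2(FPKM + 1) and log2(FPKM + 0.1), the compared groups only, the replicate number as a block, and leaving out each library. Members and gene lists were chosen with earlier results of these data known. Named genes were all 10 members, other receptors with a mean of 0.5 FPKM in a group, up to 3 called genes per list by smallest p in high glucose, and Tgm2, Col3a1, Col4a1, Cd55, Reck and Flrt2; further list genes were named after their values were seen. Promoters were taken from RefSeq (GRCm38.p6). The level of 1 marker gene is not reported here.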

Additional observations from a re-analysis of the deposited data

How the results depend on the processing

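Over the 17 alternatives the 8 receptor genes higher in high glucose against control kept a log2 fold change above 0. Genes called in AGEs against control were 15, against 325 with DESeq2, 5 with the replicate block and 10 to 21 when 1 library was left out; 2190 genes had an unadjusted p under 0.05. Leaving out 1 library gave 5737 to 6133 calls in high glucose against control, where 6946 were called with all libraries, and 5975 to 6876 in AGEs against high glucose, where 7053 were called. With limma on log2(FPKM + 1), 68.6% of the calls in high glucose against control were higher, against 49.9% with counts; 9 effector genes were then called higher, against 4, and 8 ligand genes, against 5.

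Correlations of same-numbered libraries, taken on deviations from the group means, ranged from −0.155 to 0.0809. Those of differently numbered libraries ranged from −0.142 to 0.155. With 3 libraries per group this cannot decide whether the replicate number pairs the libraries. With the replicate block 6322 genes were called in high glucose against control, 5 in AGEs against control and 6390 in AGEs against high glucose, and the receptor counts stayed at 8, 0 and 7. Over all 17 alternatives those counts were 7 or 8, 0 or 1, and 6 or 7. Directions differed without high glucose library 3: Adgra2 was then called lower in high glucose against control and higher in AGEs against high glucose. Without AGEs library 3, Adgrg1 was called lower in AGEs against control.

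Adgra2 in high glucose, Adgrg1 in AGEs and the size of Adgrl1 depended on high glucose library 3 or AGEs library 3, as given above, and the cause was not tested. Adgra1 and Adgrg2 had too few counts in AGEs and control for a precise level there.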
